A study of Mus musculus with 4 samples.

Results

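The immune checkpoint genes of the mouse brain immune panel were examined, namely the receptor genes Havcr2, Lag3 and Pdcd1 and the ligand gene Cd274. These 4 genes were taken by name from the 397 genes of a targeted single-cell panel, and all 4 had reads in each library. Cells came from the right hemisphere of 4 male 5XFAD mice aged 9 months, with the olfactory bulb and cerebellum taken off and myelin depleted. In 2 of the mice both copies of Abi3 were deleted (Abi3-/-), and the other 2 carried both copies (Abi3+/+). The mice received no treatment that the labels name, and each mouse gave 1 library. All 4 carried the 5XFAD transgenes, which drive amyloid deposition in the brain. They came from a cross of B6SJL-derived 5XFAD mice with a C57BL/6N Abi3 null line, and per the study's methods all mice kept were heterozygous for the SJL allele of Trem2. Abi3 was not a gene of the panel, so its loss could not be checked in these libraries.

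Immune checkpoints are receptors and ligands that restrain activated immune cells. TIM-3 (Havcr2), LAG-3 (Lag3) and PD-1 (Pdcd1) are best known from T cells, where they accumulate during lasting stimulation, and TIM-3 and LAG-3 are also known from microglia. PD-L1 (Cd274) is the ligand of PD-1 and is induced by interferons in myeloid and other cells. Microglia around amyloid plaques take on a state that is marked by Apoe and Cst7, among other genes.

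The members lie on 4 different chromosomes in RefSeq on GRCm38.p6, the assembly that mm10 names. Havcr2 lies at chr11:46454931-46481255, Lag3 at chr6:124904359-124912434, Pdcd1 at chr1:94038305-94052553 and Cd274 at chr19:29362107-29388095. Abi3 is also on chromosome 11, at chr11:95830072-95842476. RefSeq promoter windows on GRCm38.p6, from 250 bases before to 50 bases after the start of transcription, were found for 3 of the 4 members, all but Lag3. They are shown because Pdcd1 and Cd274 moved together between microglial states and Havcr2 did not move with them. Each runs 5′ to 3′ on the strand of the gene, and capitals mark the letters GAGGAAG, the core bound by the myeloid factor PU.1, searched on both strands. The windows are chr11:46454681-46454980 on the plus strand for Havcr2, chr1:94052504-94052803 on the minus strand for Pdcd1 and chr19:29367188-29367487 on the plus strand for Cd274. The Cd274 window lies inside the gene as annotated here, around a start 5331 bases downstream of the gene's first base, and the others lie at the first base of their genes.
Havcr2: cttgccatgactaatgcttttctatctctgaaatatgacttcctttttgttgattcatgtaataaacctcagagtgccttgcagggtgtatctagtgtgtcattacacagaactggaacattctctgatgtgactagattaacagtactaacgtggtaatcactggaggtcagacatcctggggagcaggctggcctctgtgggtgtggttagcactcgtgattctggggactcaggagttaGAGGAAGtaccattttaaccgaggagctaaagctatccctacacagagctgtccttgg
Pdcd1: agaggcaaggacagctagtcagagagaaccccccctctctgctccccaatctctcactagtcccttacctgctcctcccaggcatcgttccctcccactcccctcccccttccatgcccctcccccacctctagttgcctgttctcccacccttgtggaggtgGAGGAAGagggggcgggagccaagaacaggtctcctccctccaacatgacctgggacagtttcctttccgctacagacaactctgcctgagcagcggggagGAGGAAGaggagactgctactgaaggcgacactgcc
Cd274: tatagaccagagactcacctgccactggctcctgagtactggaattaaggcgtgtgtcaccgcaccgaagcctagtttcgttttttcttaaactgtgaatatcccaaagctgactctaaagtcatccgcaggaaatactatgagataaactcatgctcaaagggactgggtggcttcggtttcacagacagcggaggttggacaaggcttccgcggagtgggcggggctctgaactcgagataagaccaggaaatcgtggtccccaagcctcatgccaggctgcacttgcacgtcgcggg
GAGGAAG occurred 1 time in the Havcr2 window and 2 times in the Pdcd1 window, always on the strand of the gene, and 0 times in the Cd274 window. In the Havcr2 window it began 8 bases before the start site. Of 27025 mouse promoter windows of the same length, 13.5% held these letters on either strand.

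The libraries held 21172 cells, of which 13820 had at least 40 genes and passed the study's upper limit of reads, with 59271 reads in the deepest cell kept. The study's methods word the lower limit as 40 unique reads, but the shallowest deposited cell had 404 reads, so the limit was applied to genes. With more than 40 genes, 6799 cells of Abi3-/- and 6970 of Abi3+/+ animals would remain, against 6820 and 7000 kept here. Kept cells numbered 2321 and 4499 in Abi3-/- mice 1 and 2 and 3796 and 3204 in Abi3+/+ mice 1 and 2, and their median depth was 19647.5 to 24283 reads. Libraries shared 17 to 42 cell barcodes per pair, at most 0.826% of the smaller library. Reads are not molecules, so all intervals below cover counting error alone. The fewest reads of a member in a cell with any were 7 to 11, depending on gene and library.

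Cells were classed by marker genes fixed for the task. Cells with a read of Trem2 that did not meet the rule of another class were called microglia and numbered 13054. Across mice, 99.7% to 99.9% of them had a read of the complement gene C1qa and 76.2% to 94.5% one of Cx3cr1, a receptor of resting microglia. At most 0.0458% of microglia had a read of Cd3e, which is partly set by the rules, since T cells were classed first. Cd8a, not a gene of these rules, was read in at most 0.0473% of microglia. T cells had at least 2 of Cd3d, Cd3e, Cd3g, Trac and Trbc2 and numbered 307. Of T cells, 88.2% to 100% had a read of Cd3e, a share largely set by the rule itself. Outside the rule, 63.2% to 79.4% of T cells had a read of Cd8a and 5.88% to 17.6% one of C1qa. Macrophages or monocytes had at least 2 of Ccr2, Clec10a, F13a1, Flt3, Kcne3 and Cd163 and numbered 117, and 40.7% to 62.1% of them also had a read of Trem2. Neutrophils, here a class without a known high level of the 3 receptors, numbered 117, of which 87 came from Abi3-/- mouse 2.

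Havcr2 and Lag3 were found in most microglia, and Pdcd1 and Cd274 in a minority. Havcr2 was read in 79.7% and 79.1% of microglia of Abi3-/- mice 1 and 2 and in 85% and 84.2% of those of Abi3+/+ mice 1 and 2. Lag3 was read in 87.4% and 74% of microglia of Abi3-/- animals and in 74.9% and 66.8% of those of Abi3+/+ animals. Both genes thus had reads in at least 66.8% of the microglia of each mouse. Pdcd1 was read in 17% and 29% of microglia of Abi3-/- animals and in 9.30% and 10.4% of those of Abi3+/+ animals. Cd274 was read in 12.5% and 19% of microglia of Abi3-/- animals and in 9.27% and 11.6% of those of Abi3+/+ animals. Abi3-/- mouse 2 had the highest share for both Pdcd1 and Cd274. Because primers for each gene amplify with their own efficiency, shares of different genes were not compared by a test.

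**Figure D1:**
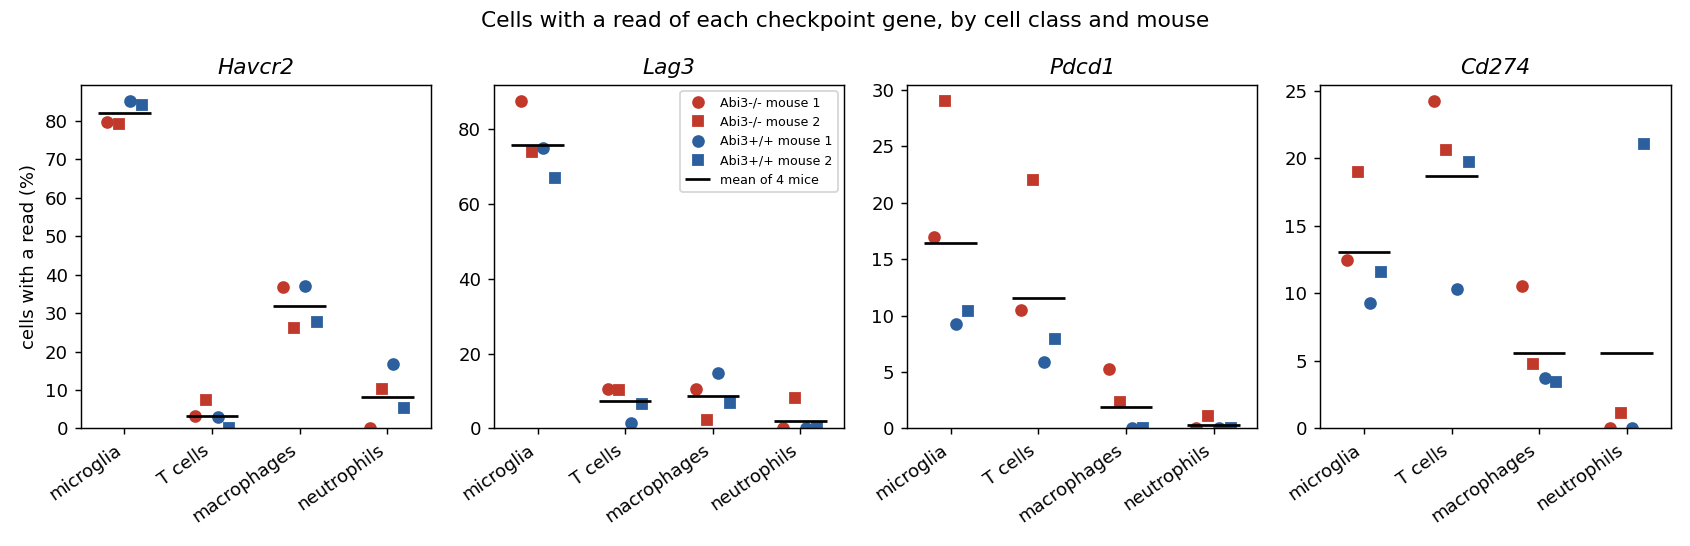
Share of cells with a read of each gene (y axis, percent, from 0, with its own scale in each panel) in 4 cell classes, with 1 point per mouse and a bar at the mean of 4 mice. Havcr2 and Lag3 stand far higher in microglia than in the other classes, while for Pdcd1 and Cd274 the shares of microglia and T cells overlap across mice. Within each mouse the share of microglia is the higher one for Pdcd1 and the lower one for Cd274. These shares are not matched for depth, and microglia are deeper than T cells in each mouse. In microglia nearer the depth of T cells, the Pdcd1 shares of the Abi3+/+ animals lay slightly below those of T cells. These gaps rest on 68 and 76 T cells, too few to give a direction.

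In T cells, the class from which these receptors are best known, Havcr2 and Lag3 were rare. Havcr2 was read in 3.16% and 7.35% of T cells of Abi3-/- animals and in 2.94% and 0% of those of Abi3+/+ animals, where 0 of 76 cells allows a share of up to 3.95% by 3 counts and 4.74% by the exact 95% limit. Lag3 was read in 10.5% and 10.3% of T cells of Abi3-/- animals and in 1.47% and 6.58% of those of Abi3+/+ animals. In the 87 neutrophils of Abi3-/- mouse 2 the shares were 10.3% for Havcr2 and 8.05% for Lag3, at a median depth of 26382 reads against 15117 in the T cells of that mouse. The Havcr2 share of T cells in that mouse was below the neutrophil share, and for Lag3 the 95% exact binomial intervals reached 20.1% in T cells and 15.9% in neutrophils. Neither share in these T cells could be told from the neutrophil share at this depth. The other mice had 5, 6 and 19 neutrophils, of which 0, 1 and 1 had Havcr2 and 0 had Lag3, too few to set a level.

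Pdcd1 was read in 10.5% and 22.1% of T cells of Abi3-/- animals and in 5.88% and 7.89% of those of Abi3+/+ animals. Cd274 was read in 24.2% and 20.6% of T cells of Abi3-/- animals and in 10.3% and 19.7% of those of Abi3+/+ animals. Neutrophils had Pdcd1 in 1 of 87 cells in Abi3-/- mouse 2 (1.15%, 95% exact binomial interval up to 6.24%), so Pdcd1 in the T cells of that mouse stood above this level. In the other mice 0 neutrophils had Pdcd1. Cd274 was read in 1.15% of neutrophils in the former mouse and in 4 of 19 (21.1%) in Abi3+/+ mouse 2. In that mouse the neutrophil and T cell shares of Cd274 did not differ beyond counting error.

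Within T cells, Pdcd1 and Cd274 were not limited to the CD8 class. Over all mice, Pdcd1 was read in 23 of 221 T cells with Cd8a or Cd8b1 (10.4%, 95% exact binomial interval 6.71% to 15.2%) and in 12 of 86 other T cells (14%, 7.42% to 23.1%). Cd274 was read in 18.6% of the former and 20.9% of the latter. These intervals overlap. Of the 53 T cells with Ctla4, another inhibitory receptor of T cells, 8 had Lag3 (15.1%, 6.75% to 27.6%), 5 of these in Abi3-/- mouse 1. Pdcd1 was read in 15 of the 53 (28.3%, 16.8% to 42.3%), and its shares were 28.6% and 38.9% in Abi3-/- animals and 0% of 6 cells and 25% of 8 cells in Abi3+/+ animals. The 25 T cells that also had Trem2 had Havcr2 in 16% and Lag3 in 24%, against 2.13% and 6.03% of the 282 T cells without it. Of these 25 cells, 5 came from Abi3-/- mouse 2, and without that mouse both genes were read in 2 of 20 (10%).

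Read sums per mouse and class were compared with the mouse as a block, in edgeR (quasi-likelihood), and p were adjusted by Benjamini-Hochberg across the panel genes tested. Between microglia and T cells, 208 of 327 genes (63.6%) passed an adjusted p of 0.05, and 1 of the 4 members did. Lag3 was 31.6-fold higher in microglia (log2 fold change 4.98 ± 0.48 SE, adjusted p = 0.00223 by edgeR, higher in 4 of 4 mice). Over 14 settings its log2 value ran from 3.52 to 6.40, and it passed in each. Havcr2 showed a log2 difference of 5.92 ± 2.01 (adjusted p = 0.0558 by edgeR), with higher levels in microglia in 4 of 4 mice. Havcr2 had 0 reads in 1 T cell library. Without that mouse its log2 value was 4.84 with an adjusted p of 0.0134 by edgeR, so the difference did not rest on that library. Pdcd1 and Cd274 did not pass, with log2 fold changes of 0.68 ± 0.24 (adjusted p = 0.0623 by edgeR) and -0.47 ± 0.35 (adjusted p = 0.296 by edgeR). By share, Pdcd1 was higher in microglia than in T cells in 4 of 4 mice, by 4.82 ± 2.19 percentage points (SD, n = 4 mice, exact sign-flip test, p = 0.13). By CPM it was higher in 3 of 4 mice, with a difference of -386.9 CPM in Abi3-/- mouse 2. Microglia were deeper, with medians of 19788 to 24695 reads per mouse against 15117 to 17450 in T cells. Band 2 of 5 equal bands of each mouse's microglia by depth had medians of 15856.5 to 20298.5 reads. There Pdcd1 was read in 12.2% and 23.1% of Abi3-/- and 4.51% and 6.19% of Abi3+/+ microglia. The Abi3+/+ values lay slightly below the T cell shares of 5.88% and 7.89%. Those shares rest on 68 and 76 T cells, too few to give a direction to such small gaps. The part of depth in this difference was not tested. Cd274 had 314.7 ± 90.3 CPM (reads per 1000000 reads of the class) in microglia and 681.7 ± 175.5 in T cells (mean ± SD, n = 4 mice) and was lower in microglia in each mouse by CPM and by share (exact sign-flip test over mice, p = 0.13 for both, the smallest that 4 mice allow). With library size in place of TMM scaling the median of all genes moved by -0.66 on the log2 scale. The Cd274 difference then passed, at -1.12 with an adjusted p of 0.0351 by edgeR, and that of Pdcd1 fell to 0.029 with an adjusted p of 0.928 by edgeR.

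Macrophages had fewer reads of each member than microglia. Havcr2 was read in 36.8% and 26.2% of macrophages of Abi3-/- animals and in 37% and 27.6% of those of Abi3+/+ animals, so it was the member found most often in this class. Lag3 was read in 2 of 19, 1 of 42, 4 of 27 and 2 of 29 cells. Pdcd1 was read in 1 cell of each Abi3-/- mouse and in 0 of 27 and 0 of 29 cells of Abi3+/+ animals, and Cd274 in 1 or 2 cells per mouse. Between microglia and macrophages 130 of 296 genes (43.9%) passed by edgeR, and so did all 4 members. Havcr2 was 7.39-fold higher in microglia (log2 2.89 ± 0.35, adjusted p = 0.00160) and Lag3 54-fold higher (log2 5.76 ± 0.86, adjusted p = 0.00348), and both passed in each of the 13 alternative settings. Over these settings the log2 value ran from 2.55 to 3.93 for Havcr2 and from 3.42 to 6.50 for Lag3. Pdcd1 (adjusted p = 0.0315 by edgeR) and Cd274 (log2 1.91 ± 0.60, adjusted p = 0.0462 by edgeR) rested on these few cells. Leaving out Abi3-/- mouse 2, Abi3+/+ mouse 1 or Abi3+/+ mouse 2 raised their adjusted p to between 0.0548 and 0.133. Havcr2 was also read in 25% of the 56 macrophages without Trem2 and in 36.1% of the 61 with it.

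The next comparison asked whether checkpoint genes go with the plaque-associated state, by splitting microglia on reads of Apoe and Cst7. Cells with both made up 33.2% and 33.4% of microglia in Abi3-/- animals and 17.6% and 19.4% in Abi3+/+ animals, and cells with neither 22.2% and 37.4% against 56% and 56.1%. Apoe+ Cst7+ cells were deeper, with a median of 27673 to 31908 reads per mouse against 16978 to 20989 in Apoe- Cst7- cells. The share of microglia with Pdcd1 rose with depth, from 7.55%, 16.5%, 4.79% and 5.01% in the shallowest of 5 equal bands of each mouse's microglia to 30.9%, 41.4%, 21.1% and 22.5% in the deepest. Differences are therefore also given within these bands of depth, weighted by the number of Apoe+ Cst7+ cells, an alternative chosen after seeing the data. The bands are cut on total reads, which include those of Apoe, Cst7 and other genes that differ between the classes. At an equal total, reads of such genes leave fewer for the members, and the part of this in the differences was not tested. Each band held at least 27 cells of either class.

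**Figure D2:**
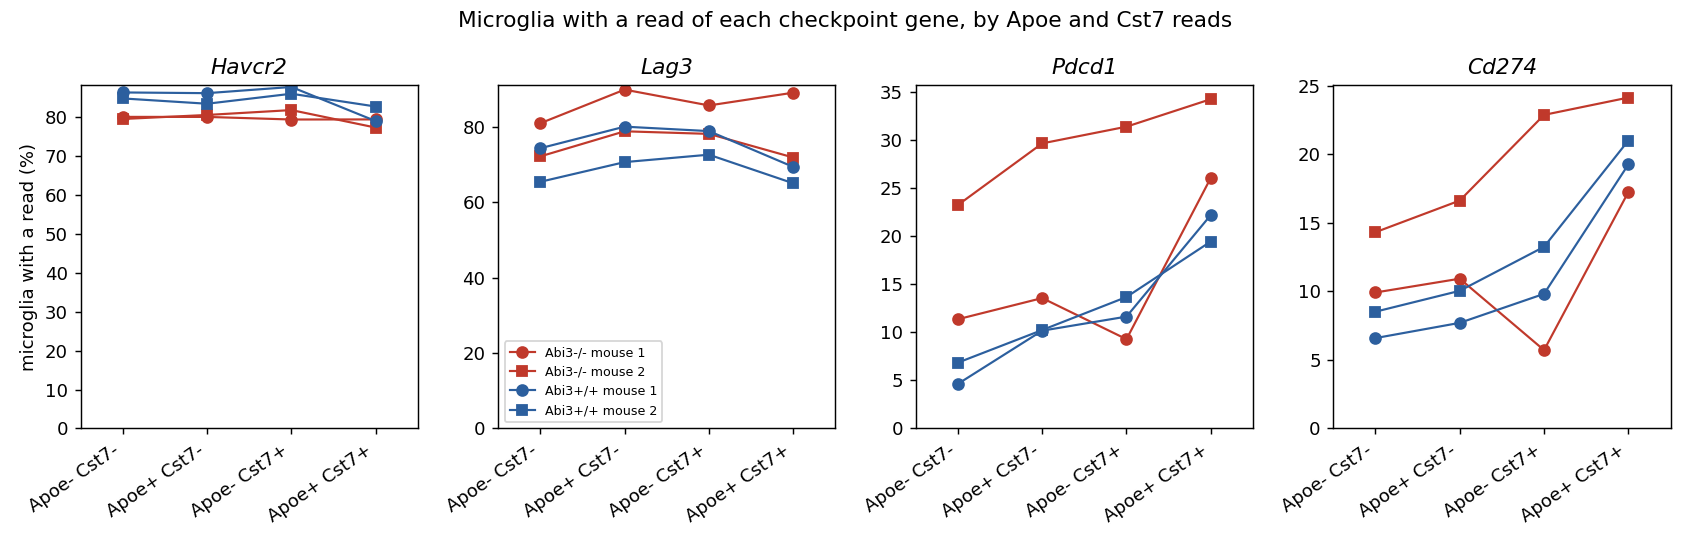
Share of microglia with a read of each gene (y axis, percent, from 0, with its own scale in each panel) in the 4 classes set by reads of Apoe and Cst7, with 1 line per mouse. Pdcd1 and Cd274 are higher in Apoe+ Cst7+ than in Apoe- Cst7- microglia in all 4 mice, while Havcr2 and Lag3 lie between 65.1% and 89.9% in every class and mouse.

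Pdcd1 and Cd274 were read in more Apoe+ Cst7+ than Apoe- Cst7- microglia in each mouse. Pdcd1 was read in 26.1% of Apoe+ Cst7+ microglia of Abi3-/- mouse 1, 34.3% of mouse 2, 22.2% of Abi3+/+ mouse 1 and 19.4% of mouse 2. In Apoe- Cst7- microglia its shares were 11.4%, 23.2%, 4.64% and 6.85% in the same order. The mean difference within mice was 14 ± 2.83 percentage points (SD, n = 4 mice), and 8.30 ± 5.05 within bands of depth (exact sign-flip test, p = 0.13 for both). Weighted over bands it was 9.38 and 2.29 points in Abi3-/- animals and 14.4 and 7.08 points in Abi3+/+ animals. This mean stayed positive in each mouse and was smallest in Abi3-/- mouse 2. By single band the Pdcd1 difference ran from -0.196 points in band 3 of Abi3+/+ mouse 2 to 18.8 points in the deepest band of Abi3+/+ mouse 1. In the deepest band of Abi3-/- mouse 2 it was 0.157 points. By CPM Pdcd1 had 586.1 in Apoe+ Cst7+ and 409.8 in Apoe- Cst7- microglia, and it was higher in 3 of 4 mice, with -59.0 CPM in Abi3-/- mouse 2 (exact sign-flip test, p = 0.25). Cd274 was read in 17.2%, 24.1%, 19.3% and 21% of Apoe+ Cst7+ and in 9.92%, 14.3%, 6.59% and 8.52% of Apoe- Cst7- microglia. The mean difference was 10.6 ± 2.53 points, and 8.73 ± 2.17 within bands of depth, positive in 4 of 4 mice for both (exact sign-flip test, p = 0.13). By band, the Cd274 difference was 13.7 to 15.9 points in the deepest band of each mouse. In the shallower bands it ran from -2.35 to 15.9 points, with values below 0 in Abi3-/- mouse 2 and Abi3+/+ mouse 2. The Cd274 level was 398.9 CPM in Apoe+ Cst7+ and 273.4 CPM in Apoe- Cst7- microglia, also higher in 4 of 4 mice. With 1 of the 2 marker genes read, Pdcd1 stood at a mean of 15.9% (Apoe alone) and 16.5% (Cst7 alone), and Cd274 at 11.3% and 12.9%. Abi3-/- mouse 1 went below its own Apoe- Cst7- level in its 140 cells with Cst7 alone, at 9.29% for Pdcd1 and 5.71% for Cd274.

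Havcr2 was read in 79.3%, 77.2%, 78.9% and 82.6% of Apoe+ Cst7+ and in 79.96%, 79.4%, 86.2% and 84.7% of Apoe- Cst7- microglia. Its mean level was 2950 CPM in the former and 4710 CPM in the latter, lower in 4 of 4 mice (exact sign-flip test, p = 0.13). Lag3 was read in 89.1%, 71.9%, 69.4% and 65.1% of Apoe+ Cst7+ and in 81%, 72.2%, 74.4% and 65.5% of Apoe- Cst7- microglia, higher in Abi3-/- mouse 1 and lower in the other 3. Within bands of depth both genes were read less often in Apoe+ Cst7+ cells in 4 of 4 mice, by a mean difference of -9.39 ± 2.19 points for Havcr2 and -10.04 ± 5.73 points for Lag3 (exact sign-flip test, p = 0.13 for both). With all depths together these differences were -3.07 ± 2.94 and 0.617 ± 5.45 points. The limit of bands cut on total reads applies to both genes. By edgeR the Lag3 log2 difference was 0.42 with TMM and -0.10 without it, as given below. In cells with Apoe alone the Lag3 share exceeded that of cells with neither gene by 6.63 ± 1.64 points and in cells with Cst7 alone by 5.61 ± 1.23 points, in 4 of 4 mice each, with all depths together (exact sign-flip test, p = 0.13).

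By edgeR 135 of 273 genes (49.5%) passed in Apoe+ Cst7+ against Apoe- Cst7- microglia, and 3 of the 4 members did. Pdcd1 was 2.44-fold higher (log2 1.28 ± 0.30, adjusted p = 0.0175) and Cd274 2.17-fold higher (log2 1.12 ± 0.23, adjusted p = 0.0125). Without TMM the median of all genes moved by -0.53 on the log2 scale, and calls were 47 higher and 121 lower in place of 70 and 65. Pdcd1 then showed a log2 difference of 0.76 and Cd274 one of 0.59, each with an adjusted p of 0.0540 by edgeR. Lag3 was called higher with TMM (log2 0.42 ± 0.09, adjusted p = 0.0125 by edgeR), but it had the opposite sign without TMM (-0.10, adjusted p = 0.534) and by limma (-0.04, adjusted p = 0.893). Havcr2 was not called with TMM (-0.15 ± 0.07, adjusted p = 0.134 by edgeR) and was called lower without it (-0.68, adjusted p = 0.00359 by edgeR) and by limma (-0.65, adjusted p = 0.0228). The count of called genes was 48 without Abi3+/+ mouse 2 and 82 without Abi3+/+ mouse 1. Without Abi3+/+ mouse 2 Lag3, Pdcd1 and Cd274 no longer passed by edgeR, with adjusted p of 0.0560, 0.0920 and 0.0708. Without Abi3-/- mouse 2 Lag3 did not pass either, at 0.0598.

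Microglia with 3 or more of the MHC class II genes Cd74, H2-Aa, H2-Ab1 and H2-Eb1, which present antigen, numbered 295. They had Havcr2 in 76.6%, Lag3 in 84.7%, Pdcd1 in 24.7% and Cd274 in 15.9%, against 82.1%, 74.6%, 17% and 13.4% of the other 12759 microglia. These shares pool mice, and 170 of the 295 cells came from Abi3-/- mouse 1. The cells were deeper than other microglia, with a median of 27698 to 33525 reads per mouse against 19629 to 24163.5, and the part of depth in these shares was not tested. By mouse the Lag3 share of these cells ran from 40.9% of 22 cells to 91.8% of 170, and it was higher than in other microglia in 3 of 4 mice. Havcr2 was lower in 4 of 4 mice and Pdcd1 higher in 3, with 27.3% against 29% in Abi3-/- mouse 2. Cd274 was higher in 2 mice and lower in 2, with 18.2% against 19% in Abi3-/- mouse 2 and 4.55% against 11.6% in Abi3+/+ mouse 2.

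Most microglia carried reads of more than 1 receptor gene. In Abi3-/- animals 61.3% and 50.3% of microglia had 2 of the 3 receptors and 13.1% and 18.7% had all 3. In Abi3+/+ animals 61.6% and 54.6% had 2, and 6.29% and 6.62% had all 3. Only 3.39% to 6.48% of microglia per mouse had none. All 4 members were read in 58 and 200 microglia of Abi3-/- animals (2.66% and 4.73%) and in 45 and 51 of Abi3+/+ animals (1.23% and 1.70%). In T cells no receptor was read in 78.9% and 73.5% of cells of Abi3-/- animals and in 92.6% and 88.2% of those of Abi3+/+ animals.

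**Figure D3:**
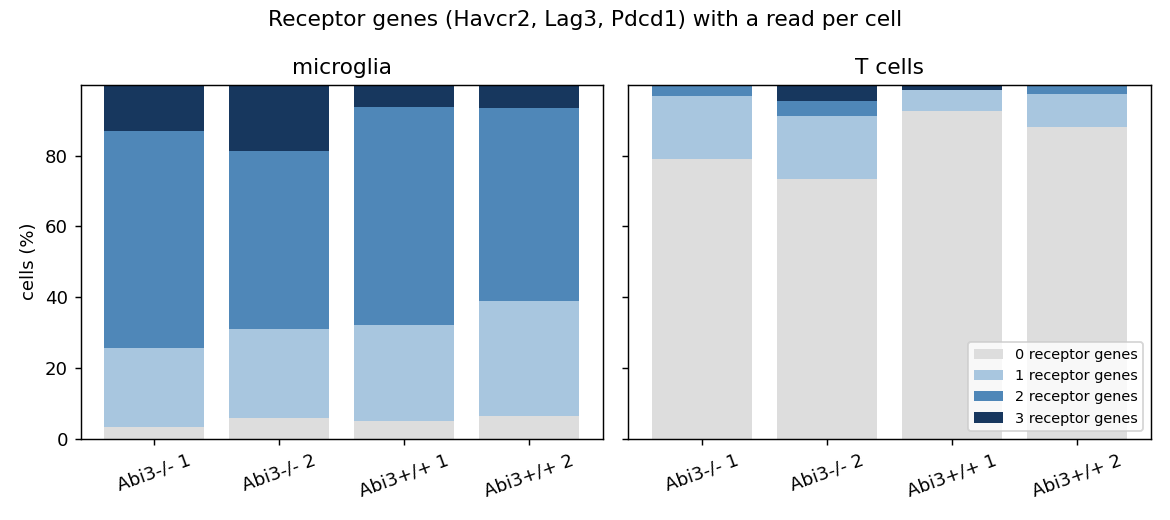
Share of cells (y axis, percent) with a read of 0, 1, 2 or 3 of the receptor genes Havcr2, Lag3 and Pdcd1, with 1 stacked bar per mouse, in microglia and in T cells. In microglia 50.3% to 61.6% of cells have 2 receptors, and in T cells 73.5% to 92.6% have none.

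Co-detection was described by the share of microglia with both genes divided by the product of the shares of each, where 1 is the value for genes read independently. Pdcd1 and Cd274, a receptor and its ligand, were read together more often than that in each mouse. The ratio was 1.47 and 1.25 in Abi3-/- animals and 2.06 and 1.89 in Abi3+/+ animals, with 68, 291, 65 and 68 cells with both. Within the 5 bands of depth it was 1.25, 1.13, 1.58 and 1.47, with a mean of 1.35 ± 0.206 (SD, n = 4 mice) against 1.67 ± 0.372 with all depths together. Of microglia with Pdcd1, 18.4%, 23.8%, 19.1% and 21.9% had Cd274, against 11.3%, 17%, 8.27% and 10.4% of those without it. Both genes are higher in Apoe+ Cst7+ cells, and within that class alone the ratio was 1.32, 1.18, 1.34 and 1.48. Within Apoe- Cst7- microglia it was 0.550 in Abi3-/- mouse 1, where only 3 cells had both, and 1.29, 1.60 and 2.14 in the other mice. The other 5 pairs had mean ratios between 1.02 and 1.05, with a lowest value of 0.986 for Lag3 and Cd274. Within bands of depth their means lay between 0.974 and 1.013, and those of Lag3 with Pdcd1 and of Lag3 with Cd274 went below 1, to 0.985 and 0.974. Each of them holds Havcr2 or Lag3, which were read in most microglia, so their ratios could not exceed 1.14 to 1.497, while that of Pdcd1 and Cd274 could reach 3.45 to 10.75. The pairs are therefore not ranked by this ratio. Cells share library and depth, so these ratios are given without a test.

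**Figure D4:**
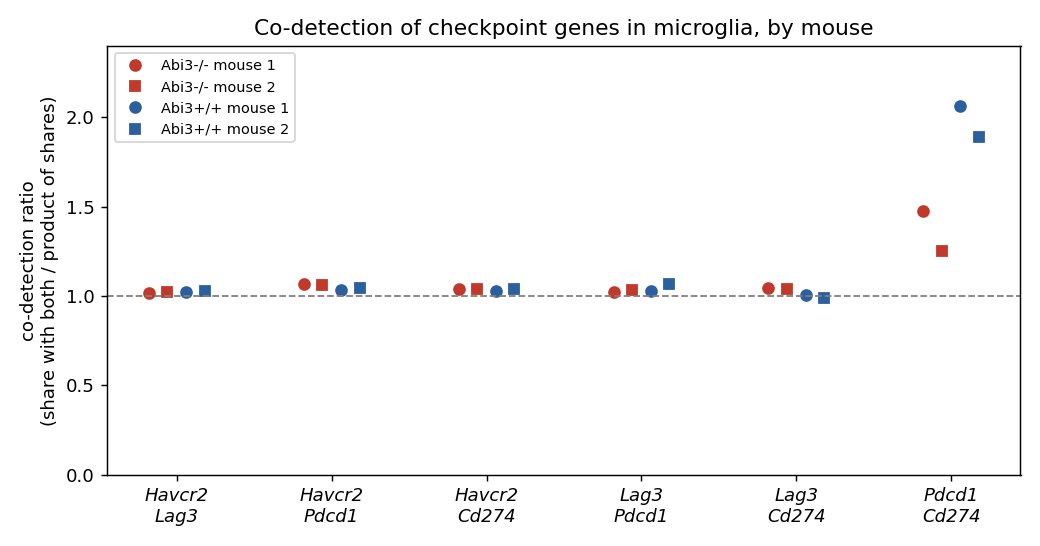
Co-detection ratio (y axis, share of microglia with both genes over the product of the shares, from 0) for the 6 pairs of members, with 1 point per mouse and a dashed line at 1. Pdcd1 with Cd274 lies at 1.25 to 2.06. The other pairs lie between 0.986 and 1.07, and their ratios cannot exceed 1.497 because Havcr2 and Lag3 are read in most microglia.

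The genotypes were then compared over mice. No exact permutation test of 2 against 2 mice can give a p under 0.33. Havcr2 made up 3344 and 3267 CPM in microglia of Abi3-/- animals and 4510 and 4975 in Abi3+/+ animals, so it was lower in both Abi3-/- mice. Pdcd1 made up 449.2 and 863.3 CPM in Abi3-/- animals and 293.8 and 331.7 in Abi3+/+ animals, so it was higher in both Abi3-/- mice, and mouse 2 of these stood far above mouse 1. Lag3, at 5101 and 2946 against 3453 and 2250, and Cd274, at 262.5 and 446.2 against 249.5 and 300.7, overlapped between genotypes. Genotypes did not overlap for 2 of 4 members, and did not for 139 of 322 panel genes (43.2%), so the count for the members is near that of the panel. By share of microglia with a read, Cd274 did not overlap either, at 12.5% and 19% against 9.27% and 11.6%, so 3 of 4 members did not overlap by share, against 148 of 322 panel genes (46%).

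**Figure D5:**
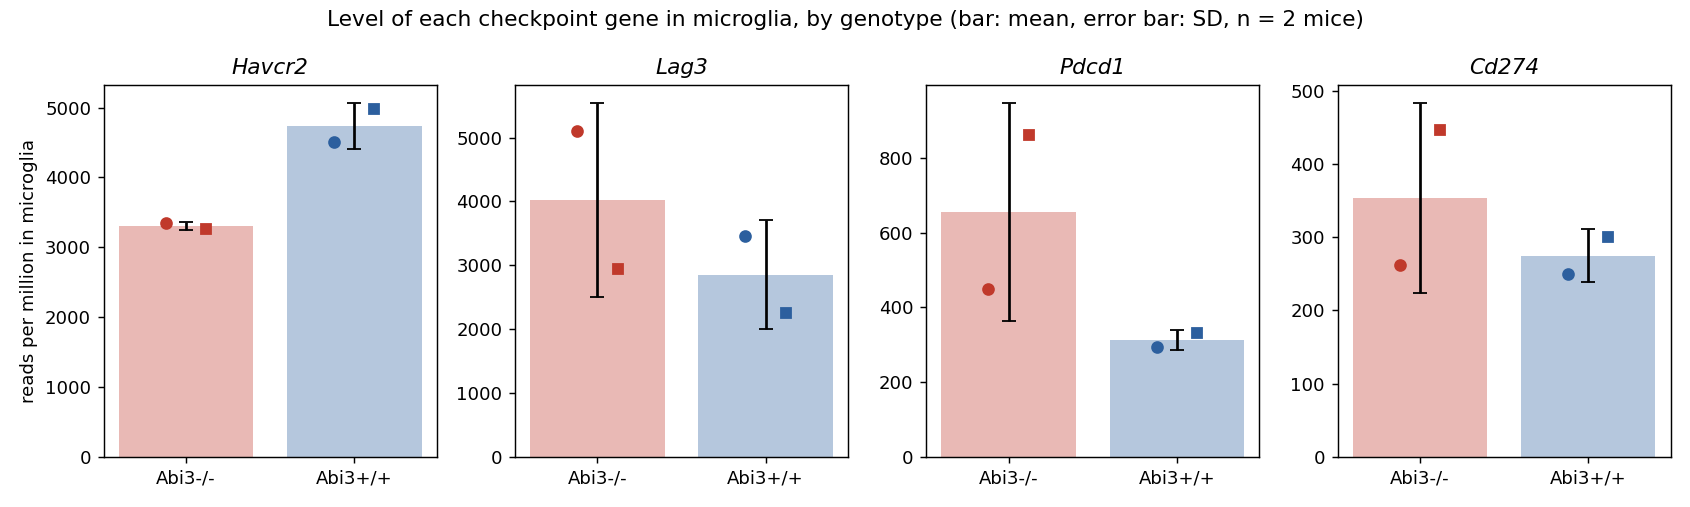
Level of each gene in microglia (y axis, CPM of the summed reads of microglia, from 0) by genotype, with 1 point per mouse, a bar at the mean and an error bar of 1 SD (n = 2 mice). Havcr2 is lower and Pdcd1 higher in both Abi3-/- mice, while the CPM of the 2 genotypes overlap for Lag3 and Cd274.

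By edgeR none of the members and 0 of 322 genes (0%) passed between genotypes in microglia, while 24 genes had an unadjusted p under 0.05, DESeq2 called 11 and limma 0. Havcr2 showed a log2 difference of -0.32 ± 0.13 in Abi3-/- (adjusted p = 0.664 by edgeR), Lag3 of 0.68 ± 0.37 (adjusted p = 0.796), Pdcd1 of 1.28 ± 0.39 (unadjusted p = 0.0315, adjusted p = 0.660) and Cd274 of 0.58 ± 0.34 (adjusted p = 0.837). Without TMM the median of all genes moved by -0.21. No alternative setting brought a member past the threshold in microglia. Havcr2 kept its negative sign in all 17 settings, between -0.61 and -0.31, and Pdcd1 its positive sign, between 0.42 and 1.64. A Pdcd1 value of 0.69 without Abi3-/- mouse 2 and of 1.64 without Abi3-/- mouse 1 shows how far 1 mouse moved it. Lag3 went from 0.21 without Abi3-/- mouse 1 and 0.35 without Abi3+/+ mouse 2 to 1.06 without Abi3+/+ mouse 1, and Cd274 from 0.10 without Abi3-/- mouse 2 to 0.87 without Abi3-/- mouse 1.

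Because the share of Apoe+ Cst7+ cells differed between the genotypes, the comparison was repeated within each class, an alternative chosen after seeing the data. In Apoe- Cst7- microglia Pdcd1 showed a log2 difference of 1.63 ± 0.44 in Abi3-/- (unadjusted p = 0.0205, adjusted p = 0.363 by edgeR, 0 of 281 genes called). In Apoe+ Cst7+ microglia the change was 0.42 ± 0.29 (adjusted p = 0.851 by edgeR, 0 of 276 called). Havcr2 had similar values in both classes, -0.33 ± 0.12 and -0.33 ± 0.19 (adjusted p = 0.431 and 0.850 by edgeR). Cd274 had 0.69 ± 0.32 in the former and -0.13 ± 0.34 in the latter (adjusted p = 0.560 and 0.970 by edgeR). In microglia with Apoe alone Pdcd1 had 1.34 ± 0.55, Cd274 0.59 ± 0.34 and Havcr2 -0.31 ± 0.16 (adjusted p = 0.878 for each by edgeR). In those with Cst7 alone Havcr2 had -0.49 ± 0.16 (unadjusted p = 0.0385, adjusted p = 0.679 by edgeR), Pdcd1 0.82 ± 0.64 and Cd274 0.28 ± 0.94 (adjusted p = 0.945 for both by edgeR).

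The difference between genotypes in the Apoe+ Cst7+ contrast was tested as an interaction. For Pdcd1 it was -1.17 ± 0.29 on the log2 scale in Abi3-/- against Abi3+/+ (unadjusted p = 0.00863, adjusted p = 0.168 by edgeR) and for Cd274 -0.84 ± 0.30 (adjusted p = 0.274 by edgeR), so neither passed. Leaving out each mouse took the Pdcd1 value from -1.47 to -0.86 and that of Cd274 from -1.15 to -0.51, the last without Abi3+/+ mouse 1. Of 273 genes, edgeR called 0 (0%), with 45 at an unadjusted p under 0.05. DESeq2 called 26, Pdcd1 among them (-1.27, adjusted p = 0.00735), and limma 0. On the scale of shares the Pdcd1 difference between the classes was 14.7 and 11 points in Abi3-/- animals and 17.6 and 12.6 points in Abi3+/+ animals, which overlap.

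In T cells the members were compared between genotypes by CPM. Pdcd1 made up 423.7 and 1250 CPM in T cells of Abi3-/- animals and 228.9 and 287.2 in those of Abi3+/+ animals. Lag3 made up 230.7 and 315.3 against 73.8 and 129.5, and Havcr2 289.2 and 370.0 against 87.3 and 0. The genotypes did not overlap for these 3 members, nor for 92 of 286 panel genes (32.2%). For Havcr2 and Lag3 this did not hold without the T cells that also had Trem2, 5 in each Abi3-/- mouse and 7 and 8 in Abi3+/+ mice 1 and 2. In T cells without Trem2, Havcr2 made up 42.2 and 147.3 CPM against 62.9 and 0, and Lag3 241.4 and 89.6 against 0 and 142.8, so both overlapped. Pdcd1 did not overlap there either, at 454.0 and 1261 against 215.8 and 316.8. By edgeR none passed and 0 of 286 genes (0%) were called, 12 had an unadjusted p under 0.05, DESeq2 called 4 and limma 0. Pdcd1 showed a log2 difference of 1.58 ± 0.75 and Lag3 of 1.34 ± 1.16 (adjusted p = 0.970 for both by edgeR). Without Abi3-/- mouse 2 the Pdcd1 difference was 0.72, and it was 2.18 without Abi3-/- mouse 1. Cd274 overlapped by CPM, at 657.2 and 647.6 against 500.2 and 921.8 (log2 difference -0.19 ± 0.54, adjusted p = 0.970 by edgeR), but not by the shares given above. The libraries hold 68 to 95 T cells. Neutrophils were numerous enough to set a level of these genes in Abi3-/- mouse 2 alone. Whether their reads are background or expression was not tested, nor was the part of background in the difference.

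Other checkpoint and costimulatory genes of the panel were followed as a list of 20, in which Tigit has 2 entries. Between microglia and T cells all 20 were tested by edgeR, and 3 were higher in microglia, 14 lower and 3 not called, against 96 higher and 112 lower of all 327 genes (63.6% called). The list had a median log2 fold change of -6.07 against 0.40 over all genes. Higher in microglia were Cd86, a costimulatory ligand (log2 4.11 ± 0.50, adjusted p = 0.00380), Entpd1, the ectonucleotidase CD39 (3.05 ± 0.31, adjusted p = 0.00230), and Lgals9, which encodes galectin-9, a ligand of TIM-3 (0.77 ± 0.19, adjusted p = 0.0234). They were read in 62.8%, 86.4% and 84.4% of microglia on average. Galectin-9 was also widely read in T cells, at 73.2%. Without TMM the median of all genes moved by -0.66 on the log2 scale, nearly as far as the Lgals9 value, so that call may depend on the scaling.

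The 14 lower in microglia were Ctla4, Tigit1, Tigit2, Btla, Cd160, Icos, Cd28, Cd27, Tnfrsf4, Tnfrsf9, Tnfrsf18, Lgals3, Tnfsf14 and Nt5e, and those not called were Cd200, Cd244 and Cd40. Among inhibitory receptors, Ctla4 was read in 17% ± 8.65 of T cells (SD, n = 4 mice) and 0.0220% of microglia, Tigit1 in 29.3% ± 11.2 and 0%, and Cd160 in 27.1% ± 6.47 and 0.00836%. Tigit2 was read in 11.3% of T cells and 0% of microglia, and Btla in 10.7% of T cells and also in 19.3% of macrophages. Cd244 was read in 1.30% of microglia, 1.75% of T cells and 23% of macrophages. Among costimulatory receptors, Cd27 was read in 54.6% of T cells, Cd28 in 48% and Tnfrsf18 (GITR) in 45.7%, each in at most 0.139% of microglia on average and 0.275% in any mouse, and Tnfrsf18 also in 19.6% of macrophages. Icos was read in 19.6% of T cells and 4.10% of microglia, and Tnfrsf4 in 10.5% and 1.197%. Tnfrsf9 was read in 2.92% of T cells and 0.00684% of microglia, and Cd40 in 0.368% and 0.236%, with 4.97% of macrophages. Among the others, Nt5e, the ectonucleotidase CD73, was read in 31.6% of T cells and 0.122% of microglia, Lgals3 in 23.1% and 4.14%, and Tnfsf14 in 10.4% and 0.130%. Havcr2 and Lag3 thus differed from Ctla4, Tigit1 and Cd160 in the class with the higher share in all 4 mice.

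Against macrophages 14 of the list were tested by edgeR, and 4 were higher in microglia and 5 lower, against 69 higher and 61 lower of all 296 genes (43.9% called). Their median log2 fold change was -0.86 against 0.79 over all genes. Cd86 (log2 2.25 ± 0.29) and Entpd1 (2.402 ± 0.31) were higher in microglia (adjusted p = 0.00193 for both by edgeR), and Lgals3, which encodes galectin-3, was lower (-4.65 ± 0.27, adjusted p = 0.000137 by edgeR). Lgals9 (1.91 ± 0.20, adjusted p = 0.000982 by edgeR) and Icos, read in 0% of macrophages (adjusted p = 0.0411 by edgeR), were also higher in microglia, and Btla, Cd244, Tnfrsf18 and Tnfsf14 were also lower (adjusted p = 0.00285 to 0.0315 by edgeR). In Apoe+ Cst7+ against Apoe- Cst7- microglia 12 were tested, of which 3 were higher and 2 lower, against 70 and 65 of all 273 genes (49.5% called), so the count for the list is near that of the panel. The median was -0.38 against -0.08 over all genes. Lgals3 was higher (log2 4.54 ± 0.35, adjusted p = 0.00118 by edgeR). Btla and Cd28 were also called higher (adjusted p = 0.0224 and 0.0412 by edgeR), each on reads in 0.139% of microglia. Entpd1 (-0.55 ± 0.10, adjusted p = 0.00934 by edgeR) and Lgals9 (-0.40 ± 0.09, adjusted p = 0.0151 by edgeR) were lower. Between genotypes in microglia 15 of the list were tested, and 0 were called by edgeR.

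The panel genes whose levels ran most like each member were found from 28 sums per mouse and class of at least 10 cells, as Pearson r of log2(CPM + 10). These sums share mice and libraries, and r mainly follows which class a gene marks. For Havcr2 they were Cx3cr1 (r = 0.929), Slc7a7 (0.913) and Cd9 (0.913). For Lag3 they were Fscn1 (0.949), Ctsd (0.935) and Cd34 (0.933). For Pdcd1 they were Bcl2a1a (0.774), Gapdh (0.765) and Tyms (0.762), and for Cd274 Itgb2 (0.753), Il15ra (0.743) and Bcl2a1a (0.732). Between members r was highest for Havcr2 with Lag3 (0.824) and lowest for Havcr2 with Cd274 (0.0966).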

How the data were processed

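Single cells of 4 mice were profiled with the BD Rhapsody mouse immune panel, with 1 library per mouse. A difference between mice and one between libraries cannot be told apart. The authors ran the BD Rhapsody Targeted Analysis Pipeline on mm10 and deposited whole-number counts of reads for each cell and gene, after the distribution-based correction of that pipeline and with no cell filter or normalization. The pipeline version is not given in the sources used here. Cells under 40 genes (40 unique reads in the study's wording, which no deposited cell fell under) or over the study's upper limit of reads were left out, and no doublet caller was run. Classes were set in the order T cells (2 of 5 genes), B cells (2 of 6), neutrophils (3 of 6), macrophages (2 of 6) and microglia (Trem2). Reads were summed per mouse and class and tested in R 4.3.3 with edgeR 4.0.16 (quasi-likelihood test, default filter on low counts, TMM, Benjamini-Hochberg adjustment over all genes, threshold 0.05). Contrasts between classes had the mouse as a block. DESeq2 1.42.0 and limma 3.58.1 (mean log-normalized expression per mouse, scaled to 10000 reads per cell) were alternatives, with no filter on cells or genes, no TMM, thinning to 10000 reads, other class rules and leaving out each mouse. Cells with a read of a member mostly held many, so thinning could hardly change shares, and shares were also compared within 5 bands of total reads per cell. Shares were compared with exact permutation and sign-flip tests, all two-sided, and their 95% intervals are exact (Clopper-Pearson). The edgeR test was also run on simulated data, and the outcome is not used here. The genes named are the 4 members, a list of 20 checkpoint and costimulatory genes, and the 3 panel genes most like each member. Values are given for list genes that were called or most often read. The members and lists were chosen with earlier results of these data known. Promoter windows and positions are from RefSeq on GRCm38.p6.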

Additional observations from a re-analysis of the deposited data

Results flagged for a closer look

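Among 30 sets of 4 values, 1 per mouse, 4 had a value that stood far from the other 3. Chance would mark about 1 set in 20 if the sets were separate, but they share genes, reads and mice, so this rate is a rough guide alone. Abi3-/- mouse 2 stood apart in 3 of these 4 sets, all for Pdcd1. Its level in microglia minus that in T cells was -386.9 CPM, its share in microglia minus that in macrophages was 26.6 points, and its level in microglia minus that in macrophages was 838.6 CPM. In Abi3+/+ mouse 1 the co-detection ratio of Havcr2 and Cd274 in microglia was 1.03, with the other mice slightly higher in a narrow range.

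Cells outside the depth limits also had reads of the members. In the 5674 cells with fewer than 40 genes, Havcr2 was read in 3.63%, Lag3 in 4.14%, Pdcd1 in 0.335% and Cd274 in 0.811%. In the 1678 cells over the upper limit of reads, Havcr2 was read in 89.7%, Lag3 in 81.3%, Pdcd1 in 45.2% and Cd274 in 40.7%. These cells were pooled over mice and were not classed.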

How the results depend on the processing

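Of 596 values recomputed under the alternatives, 520 kept their direction and their side of the threshold or moved by less than the spread between mice, 13 changed sign, 14 newly passed, 16 no longer passed and 33 moved further. The cause was not tested. In microglia against T cells (log2, adjusted p by edgeR unless named), Havcr2 newly passed after thinning (6.46, 0.0267), with T cells without Trem2 (7.66, 0.0205), by DESeq2 (5.83, 5.26e-05) and by limma (4.24, 0.000212). Pdcd1 newly passed without the gene filter (1.09, 0.0284), with T cells without Trem2 (0.92, 0.0345), by DESeq2 (0.64, 0.00400) and by limma (0.17, 0.0191), and Cd274 without TMM (-1.12, 0.0351) and by limma (-0.37, 0.0432). Against macrophages Cd274 no longer passed without TMM (1.64, 0.0584), without the gene filter (1.93, 0.0539), by limma (0.30, 0.0596) and with macrophages without Trem2 (4.92, 0.237). In Apoe+ Cst7+ against Apoe- Cst7- microglia the values without TMM were -0.68 for Havcr2, -0.10 for Lag3, 0.76 for Pdcd1 and 0.59 for Cd274, and limma gave -0.65 for Havcr2 and -0.038 for Lag3.

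The genotype difference in that contrast was near 0 for Havcr2 (0.02), and its sign changed without the cell filter (-0.18), after thinning (-0.011), without the gene filter (-0.033), by DESeq2 (-0.085) and without MHC class II microglia (-0.051). DESeq2 gave -1.27 for Pdcd1 there and called 26 genes, and it called 11 between genotypes in microglia and 4 in T cells, where edgeR called 0. Cd274 between genotypes was -0.13 in Apoe+ Cst7+ microglia and, in T cells by limma, 0.26.

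Without the cell filter the Havcr2 share differed by -4.00 points between genotypes, and in Apoe+ Cst7+ against Apoe- Cst7- microglia by 2.26 points for Havcr2, 20.4 for Pdcd1 and 17 for Cd274. The co-detection ratios were then 1.09 for Havcr2 with Lag3, 1.14 for Havcr2 with Pdcd1, 1.13 for Havcr2 with Cd274, 1.14 for Lag3 with Pdcd1 and 1.12 for Lag3 with Cd274. With the upper limit of reads alone, chosen after seeing the data, they were 1.093, 1.129, 1.110, 1.112 and 1.091 in the same order, the Havcr2 share differed by -3.36 points between genotypes and by 72.7 points between microglia and T cells, and every log2 value and count of called genes kept its direction and its side of the threshold. After thinning they were 1.02 for Havcr2 with Lag3 and 1.03 for Havcr2 with Cd274. Within bands of depth they were 1.011, 1.013, 1.001, 0.985 and 0.974 in the order above, and in Apoe+ Cst7+ against Apoe- Cst7- microglia the shares differed by -9.39 points for Havcr2, -10.04 for Lag3 and 8.30 for Pdcd1.

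Leaving out each mouse gave ranges of 4.84 to 6.97 for Havcr2 in microglia against T cells, 5.39 to 8.31 for Pdcd1 and 1.74 to 2.36 for Cd274 against macrophages, and 0.37 to 0.46 for Lag3, 0.99 to 1.55 for Pdcd1 and 0.87 to 1.31 for Cd274 in the Apoe+ Cst7+ contrast, where 48 to 150 genes were called. Its genotype difference ran from -0.061 to 0.11 for Havcr2 and from -0.015 to 0.31 for Lag3, with 0 to 29 genes called. Between genotypes in T cells Cd274 ran from -0.54 to 0.33, with 0 to 1 genes called. With the replicate number as a replicate block, Pdcd1 between genotypes in microglia was 1.198 (adjusted p = 0.339 by edgeR) and Havcr2 -0.32 (adjusted p = 0.534), and 0 genes were called. Deviations of same-numbered mice had a correlation of 0.230 over 322 genes. With 2 pairs the crossed value is its mirror, -0.230, so this does not decide whether the numbers pair the mice, and no label says that they do.

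Comparisons rest on 2 mice per genotype and on 19 to 95 T cells or macrophages per mouse.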
